A study of Mus musculus with 75 samples.

Results

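Kit, Ano1, Etv1, Thbs4 and Cd36 are genes used to recognise interstitial cells of Cajal, the pacemaker cells of the gut wall, and their RNA was followed here through mouse gut libraries labelled as enteric glial cells. The genes were chosen by name: all 5 were present among the 21051 symbols of the table of untreated and 2 h samples and among the 21076 symbols of the 24 h table, and all 5 passed the filter on low counts in each of the 3 experiments.

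Interstitial cells of Cajal lie beside the nerve plexuses and between the muscle cells of the gut, and their electrical slow waves pace the contraction of smooth muscle. KIT is a receptor tyrosine kinase that these cells need to form and persist, and its ligand, encoded by Kitl, is made by neighbouring neurons and muscle cells. ANO1 is the calcium-activated chloride channel that carries the pacemaker current, and ETV1 is a transcription factor of the ETS family that acts downstream of KIT in this lineage. Mast cells also carry KIT, and CD36, a receptor for fatty acids, is well known on capillary endothelium, macrophages and adipocytes.

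The study collected 75 RNA-seq libraries in 16 groups. Every mouse carried a green fluorescent protein reporter transgene, and the design describes the untreated animals as adults. Untreated samples came from the myenteric plexus, the nerve layer between the muscle coats, and from the submucosal plexus, the layer under the mucosa: 5 colon and 6 small intestine libraries of each. All later samples were myenteric. At 2 h, mice had received phosphate-buffered saline (PBS) or 1 intraperitoneal injection of lipopolysaccharide (LPS, a bacterial cell wall component that provokes inflammation) at 2 mg/kg, with 4 libraries per region and treatment. At 24 h, both treatments were given to reporter mice of the genotypes Gpr37WT and Gpr37-/-, the second lacking the glial receptor GPR37. The 37 libraries of this time came from 22 mice. The Gpr37WT groups held 5 LPS colon, 4 LPS small intestine, 4 PBS colon and 6 PBS small intestine libraries, and the Gpr37-/- groups held 4, 5, 5 and 4 in the same order.

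Library totals ran from 2547296 to 9002546 counts in untreated samples, from 1990744 to 7883251 at 2 h and from 2882539 to 33283346 at 24 h. Levels are given as CPM, read counts scaled to a common library size, and 3 counts, the floor used here, corresponded to 0.0933 to 1.46 CPM depending on the library. The glial gene Sox10 was detected in all 75 libraries, at no less than 11.1 CPM. Gpr37 had at most 9 counts in any Gpr37-/- library, while the Gpr37WT libraries at 24 h had 0 to 158, so that some of them did not stand above the deleted genotype. Summed CPM of 6 smooth muscle markers ran from 7099 to 22793 in the untreated colon myenteric libraries, so the libraries held RNA of cells other than glia. In such bulk samples, fewer cells of a type and less RNA per cell cannot be told apart.

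The promoters of 4 genes are printed because of how their levels ran below: Kit and Ano1 were lower together in the colon submucosal plexus, Cd36 moved apart from them between regions, and Kitl encodes the KIT ligand. Each is 250 bases before to 50 after the gene start in RefSeq (GRCm38.p6), read on the gene's strand. The windows are chr5:75574737-75575036 on the plus strand for Kit, chr7:144738524-144738823 on the minus strand for Ano1, chr5:17835847-17836146 on the minus strand for Cd36 and chr10:100015571-100015870 on the plus strand for Kitl. Capitals mark a match to the ETS core.
Kit: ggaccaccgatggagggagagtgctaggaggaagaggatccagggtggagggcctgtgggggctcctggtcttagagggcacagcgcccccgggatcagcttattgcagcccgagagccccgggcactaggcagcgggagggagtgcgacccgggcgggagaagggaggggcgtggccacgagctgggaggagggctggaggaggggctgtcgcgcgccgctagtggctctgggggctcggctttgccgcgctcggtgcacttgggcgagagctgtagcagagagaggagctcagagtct
Ano1: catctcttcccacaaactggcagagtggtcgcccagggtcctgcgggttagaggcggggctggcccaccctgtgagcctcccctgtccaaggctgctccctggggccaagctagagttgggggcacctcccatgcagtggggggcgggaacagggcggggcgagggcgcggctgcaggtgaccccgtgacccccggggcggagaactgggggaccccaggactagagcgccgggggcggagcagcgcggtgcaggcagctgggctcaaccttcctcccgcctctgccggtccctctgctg
Cd36: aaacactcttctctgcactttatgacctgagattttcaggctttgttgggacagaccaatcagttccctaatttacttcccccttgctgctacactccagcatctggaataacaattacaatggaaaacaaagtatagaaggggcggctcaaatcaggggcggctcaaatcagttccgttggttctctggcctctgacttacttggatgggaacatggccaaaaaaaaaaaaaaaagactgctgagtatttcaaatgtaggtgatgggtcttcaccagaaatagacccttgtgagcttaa
Kitl: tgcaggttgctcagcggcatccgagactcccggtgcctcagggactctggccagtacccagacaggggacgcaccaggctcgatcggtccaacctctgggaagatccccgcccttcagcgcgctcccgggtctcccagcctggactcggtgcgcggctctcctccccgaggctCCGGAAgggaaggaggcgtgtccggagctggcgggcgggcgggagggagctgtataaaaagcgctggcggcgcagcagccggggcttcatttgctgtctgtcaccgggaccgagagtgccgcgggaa
CCGGAA, the core bound by ETS factors such as ETV1, and the E-box CACGTG were searched on both strands, and the letters of these motifs do not overlap. Neither was found in the RefSeq windows of the 5 genes, whereas the Kitl window held 1 ETS core, starting 77 bases before the gene start. Of 32851 mouse promoters of this length, 14.9% held the ETS core and 7.15% the E-box. GC content was 69% in the Kit window, 71.7% in that of Ano1 and 43% in that of Cd36. Kit and Etv1 had more than 1 RefSeq window, and each was searched. The Ano1 and Cd36 windows lie inside the GENCODE spans given next, away from their outermost starts. Motifs and GC content at other starts of these genes were not examined. In GENCODE vM21 (GRCm38), Kit spans chr5:75574916-75656722 (plus strand), Ano1 chr7:144588549-144751974 (minus), Etv1 chr12:38779380-38870484 (plus), Thbs4 chr13:92751590-92794818 (minus) and Cd36 chr5:17781690-17888801 (minus).

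In untreated colon, 3 of the 5 genes were lower in the submucosal than in the myenteric plexus. Kit stood at 39.1, 42.6, 308, 133 and 79.7 CPM in the 5 colon myenteric libraries, from males 1, 2 and 3 and females 2 and 3. In the colon submucosal plexus it stood at 13.3, 15.6, 11.7, 7.29 and 27.8 CPM, in males 1 and 3 and females 1, 2 and 3. All submucosal values lay below all myenteric ones, and male 3 was the highest of the myenteric libraries. The log2 difference was -2.99 ± 0.80 (SE; edgeR adjusted p = 0.0113), a 7.94-fold lower level. Without colon myenteric male 3 it was -2.28 (adjusted p = 0.0475).

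Ano1, the pacemaker chloride channel, read 175, 138, 528, 181 and 124 CPM in the same colon myenteric libraries. In the colon submucosal libraries it read 27.4, 118, 27.5, 34.7 and 7.49 CPM. Again the groups did not overlap, with the submucosal library of male 3 close under the lowest myenteric one. The log2 difference was -2.41 ± 0.76 (adjusted p = 0.0275). This call rested on single libraries: leaving out 5 of the 22 untreated libraries in turn ended it, among them the myenteric library of male 3 (-1.84, adjusted p = 0.0938) and the submucosal libraries of male 1 and of females 1, 2 and 3. Without submucosal male 3 the difference was -3.24 (adjusted p = 0.00581).

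Etv1, the transcription factor, was lower in every colon submucosal library as well. It read 87.9, 118, 167, 94.9 and 87.5 CPM in colon myenteric libraries and 16.6, 35.1, 12.7, 25.4 and 20.9 CPM in colon submucosal ones, with a wide gap between the groups. The log2 difference was -2.32 ± 0.36 (adjusted p = 0.000229), and neither this call nor that of Kit was lost in any of 22 fits that left out 1 library each. Thbs4, a thrombospondin of the extracellular matrix, had 5.65 to 51.1 CPM against 13.6 to 141 CPM, ranges that overlapped (0.84 ± 0.86, adjusted p = 0.525). Cd36 had 78.0 to 113 CPM in the myenteric and 82.1 to 242 CPM in the submucosal plexus (0.76 ± 0.44, adjusted p = 0.223). The 3 called genes were all lower, beside 11.1% of 14090 genes tested that were called lower and 21.8% called in either direction.

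In small intestine, 4 of 5 genes were lower in submucosal than in myenteric libraries. Of all genes, 21.2% were called lower in this comparison and 43.5% in either direction. Etv1 ran from 79.9 CPM through a median of 95.6 to 125 CPM in the 6 myenteric libraries, and from 5.03 through 9.68 to 28.2 CPM in the 6 submucosal ones. These groups lay well apart, and the log2 difference was -3.01 ± 0.34 (adjusted p = 1.12e-06). Ano1 ran from 9.42 through 46.5 to 50.3 CPM in the myenteric and from 0.360 through 5.51 to 21.4 CPM in the submucosal plexus. Female 3 gave the low myenteric value and brought the groups into overlap. The Ano1 log2 difference was -2.31 ± 0.71 (adjusted p = 0.0114).

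Thbs4 was scarce in the small intestine. It ran from 0 through 1.62 to 14.4 CPM in the myenteric plexus and from 0 through 0.556 to 0.719 CPM in the submucosal plexus, where no library had more than 4 counts. The fitted difference of -3.30 ± 0.99 (adjusted p = 0.00982) therefore rests on levels near the floor, and it was -2.41 (adjusted p = 0.0489) without myenteric female 3. Cd36 ran from 277 through 542 to 1027 CPM in the myenteric and from 48.9 through 198 to 353 CPM in the submucosal plexus, with a small overlap (-1.65 ± 0.41, adjusted p = 0.00239). Each of these 4 calls held in all 22 fits that left out a library.

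Kit did not pass the test in the small intestine. It was low in both layers, at 0.303, 15.0 and 26.9 CPM (lowest, median and highest) in the myenteric and 4.48, 13.2 and 22.3 CPM in the submucosal plexus. Male 3 and female 3 gave the myenteric values of 0.303 and 0.571 CPM, and the groups overlapped throughout. The log2 difference was 0.10 ± 0.70 (adjusted p = 0.922).

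**Figure D1:**
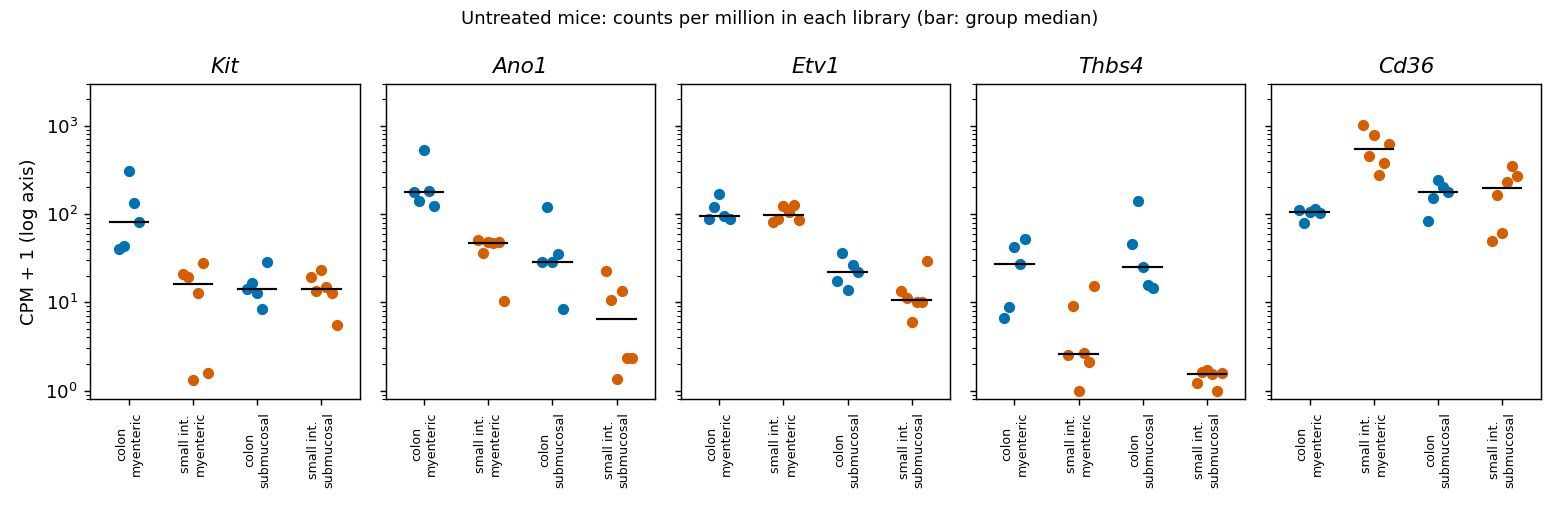
Untreated libraries: each point is the level of 1 gene in 1 library (CPM plus 1, log scale), by region and plexus, with 1 panel per gene and bars at the group medians. Kit and Ano1 are highest in the colon myenteric libraries, Etv1 is high in both myenteric groups, Thbs4 is highest in colon and Cd36 in the small intestine myenteric libraries.

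Markers of other cells differed between the plexuses as well. In colon, 6 of 6 smooth muscle markers, 3 of 7 glial, 3 of 5 neuronal, 2 of 5 PDGFRA-positive fibroblast-like cell and 1 of 5 blood endothelial markers were called lower in submucosal libraries. For the small intestine the numbers were 6 of 6, 7 of 7, 5 of 5, 1 of 5 and 5 of 5. Mesothelial markers (3 of 3 in each region) and 2 of 3 lymphatic endothelial markers in colon were lower too. Called higher in submucosal libraries were 5 of 6 macrophage, 2 of 7 epithelial and 2 of 4 leukocyte markers in colon, and 6 of 6, 7 of 7 and 3 of 4 in the small intestine. Summed macrophage markers ran from 69.5 to 477 CPM in colon myenteric, 122 to 1974 CPM in small intestine myenteric, 87.2 to 4213 CPM in colon submucosal and 1812 to 10127 CPM in small intestine submucosal libraries. Summed smooth muscle markers ran from 792 to 3267 CPM in colon submucosal and from 72.6 to 1058 CPM in small intestine submucosal libraries, against 1190 to 8337 CPM in small intestine myenteric ones. Mitochondrial genes took a median of 10.4% of counts in colon myenteric, 16.0% in small intestine myenteric, 5.38% in colon submucosal and 6.32% in small intestine submucosal libraries. The 7 mast cell markers summed to 0 to 4.90 CPM in colon myenteric, 0 to 1.96 CPM in small intestine myenteric, 2.47 to 49.0 CPM in colon submucosal and 0 to 17.1 CPM in small intestine submucosal libraries. Of these, Cpa3, Mcpt4, Ms4a2 and Fcer1a were at 0 counts in every untreated myenteric library, Cma1, Hdc and Tpsb2 were not, and Hdc, 1 of 2 that could be tested, was called higher in the submucosal plexus of both regions. The part of these differences in the results for the 5 genes was not tested.

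A list of 24 further genes of KIT signalling and slow-wave activity, of which 23 could be tested here, was counted beside the share of all genes called. In colon, 12 of 23 were called lower and 1 higher in the submucosal plexus (median log2 difference -1.39, against -0.01 over all genes), beside 21.8% of all genes called and 11.1% called lower. Cacna1g, a T-type calcium channel subunit, differed by -4.47 ± 1.18 (adjusted p = 0.0101) and Mrvi1, the substrate of cGMP kinase that acts on the IP3 receptor, by -2.25 ± 0.71 (adjusted p = 0.0265). Kitl, the KIT ligand, ran from 92.0 to 393 CPM in colon myenteric and from 54.0 to 121 CPM in colon submucosal libraries (-1.21 ± 0.39, adjusted p = 0.0310). Tacr1, the substance P receptor, was also called lower, with 0 counts in all 5 submucosal libraries, but it reached no more than 8.48 CPM in the myenteric ones. Cd44, a hyaluronan receptor, was the gene called higher (0.92 ± 0.26, adjusted p = 0.0133).

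In the small intestine, 11 of the 23 were called lower and 2 higher (median -0.94, against 0.06 over all genes), beside 43.5% of all genes called and 21.2% called lower. The 3 lower genes with the widest differences were Cacna1g (-3.02 ± 1.05, adjusted p = 0.0235), Spry1, an inhibitor of receptor tyrosine kinase signalling (-2.46 ± 0.47, adjusted p = 0.000261), and Itpr1, the IP3 receptor that releases stored calcium (-2.26 ± 0.31, adjusted p = 9.21e-06). The higher genes were Slc12a2, the sodium-potassium-chloride cotransporter (1.40 ± 0.43, adjusted p = 0.0114), and Cd44 (1.30 ± 0.24, adjusted p = 0.000163). For Kitl the difference was -0.70 (adjusted p = 0.119).

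Between regions, Kit and Cd36 ran in opposite directions in the myenteric plexus. The colon values of Kit given above, 39.1 to 308 CPM, all lay above the small intestine values, 0.303 to 26.9 CPM, with a log2 difference of 3.23 ± 0.76 (adjusted p = 0.0225), a 9.37-fold higher level in colon. For Cd36, all colon values (78.0 to 113 CPM) lay below all small intestine values (277 to 1027 CPM), with a difference of -2.54 ± 0.45 (adjusted p = 0.00489). These were 2 calls among 5 genes, beside 3.19% of all genes called. The Cd36 call held in 22 of 22 fits that left out a library. The Kit call did not: it was lost without colon male 3 (2.51, adjusted p = 0.0707), without small intestine female 1 (3.21, adjusted p = 0.0545), with the animal label as a block (3.07, adjusted p = 0.0898) and when only these groups were fitted (3.23, adjusted p = 0.0705).

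Ano1 also lay higher in every colon myenteric library (124 to 528 CPM) than in any small intestine one (9.42 to 50.3 CPM). Its difference of 2.55 ± 0.72 missed the threshold (adjusted p = 0.0521) but passed it with DESeq2 (adjusted p = 0.00815), with the animal label as a block (0.0413) and with these groups fitted alone (0.00880). Etv1 gave 0.14 ± 0.32 (adjusted p = 0.896) and Thbs4 2.56 ± 0.86 (adjusted p = 0.109). In the same comparison, 3 of 5 PDGFRA-positive fibroblast-like cell markers, 3 of 3 lymphatic endothelial markers and 3 of 6 smooth muscle markers were called higher in colon and 5 of 5 neuronal markers lower. Their part in the Kit and Cd36 differences was not tested. Of the KIT and slow-wave list, 2 of 23 were called higher in colon and 0 lower: Spry4 (1.95 ± 0.42, adjusted p = 0.0154) and Gja1, the gap junction protein connexin 43 (1.90 ± 0.47, adjusted p = 0.0306). Kitl gave 1.06 (adjusted p = 0.128).

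Between the submucosal plexuses, Thbs4 was the single gene of the 5 that passed the test, where 5.18% of all genes did. It read 45.1, 141, 24.3, 14.8 and 13.6 CPM in colon, against at most 0.719 CPM in the small intestine, so that the groups were far apart. The fitted difference was 6.70 ± 1.08 (adjusted p = 0.000795), a value that depends on the prior count because the small intestine libraries had only 0 to 4 counts, and which was 5.73 (adjusted p = 0.00305) without colon male 3. Ano1 gave 2.45 ± 0.73 (adjusted p = 0.0529), which passed with DESeq2 (0.00954) and with sex as a covariate (0.0380). For Etv1 (0.84 ± 0.33, adjusted p = 0.166), Kit (0.14) and Cd36 (-0.13) the groups overlapped. Gja1 (2.28 ± 0.48, adjusted p = 0.00685) and Spry4 (2.10 ± 0.44, adjusted p = 0.00657) were again the list genes called higher in colon, and Kitl gave 0.54 (adjusted p = 0.494). Of other cells' markers, 2 of 5 blood endothelial and 2 of 7 glial were called higher in colon, and 2 of 7 epithelial and 1 of 5 neuronal lower; their part in the Thbs4 difference was not tested.

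The test of whether the plexus difference itself varied with region gave 1 call among the 5 genes, beside 1.19% of all genes. It was Cd36, whose submucosal-minus-myenteric log2 difference was 2.41 ± 0.60 higher in colon than in the small intestine (adjusted p = 0.0476). This call held in only 6 of 22 fits that left out a library and was lost with the animal label as a block. For Kit the same quantity was -3.09 ± 1.04 (adjusted p = 0.149) and for Thbs4 4.14 ± 1.32 (adjusted p = 0.126), so the Kit plexus difference was not shown to depend on region. Ano1 gave -0.10 and Etv1 0.69, and neither passed the test. The same quantity for Kitl was -0.51 (adjusted p = 0.722). Of other cells' markers, 1 of 5 blood endothelial and 1 of 7 glial were called higher and 1 of 7 epithelial lower. The blood endothelial median was 2.40, with 4 of 5 at an unadjusted p under 0.05, as were 14.7% of all genes. Their part in the Cd36 difference was not tested.

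Scaled by exon length, the order of the genes was not the same in each untreated group. In colon myenteric libraries Ano1 averaged 36.7 CPM per kilobase, Cd36 28.2, Kit 13.5, Etv1 8.34 and Thbs4 8.09. In small intestine myenteric libraries Cd36 led with 165 CPM per kilobase, ahead of Etv1 with 7.56, Ano1 with 6.27, Kit with 1.45 and Thbs4 with 1.36. Kit averaged 1.70 CPM per kilobase in colon and 1.56 in small intestine submucosal libraries, close to its small intestine myenteric level.

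At 2 h after LPS, no test placed any of the 5 genes apart from PBS. In colon, Kit read 25.2, 115, 65.7 and 14.7 CPM with PBS and 44.4, 60.7, 67.4 and 24.7 CPM with LPS. In the small intestine it read 8.17, 17.5, 16.7 and 12.9 CPM with PBS and 21.8, 13.9, 8.32 and 38.5 CPM with LPS. In both regions the treatments overlapped. The log2 differences were -0.16 ± 0.60 in colon and 0.58 ± 0.61 in the small intestine.

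Ano1 gave 58.8, 205, 103 and 53.3 CPM with PBS and 138, 33.5, 134 and 11.9 CPM with LPS in colon. In the small intestine it gave 59.2, 47.3, 78.1 and 22.3 CPM with PBS and 44.6, 60.9, 22.1 and 86.2 CPM with LPS, the same span of levels. Cd36 read 474, 42.5, 84.7 and 164 CPM with PBS and 66.4, 128, 160 and 0 CPM with LPS in colon. Etv1 read 82.7 to 174 CPM with PBS and 54.1 to 93.2 CPM with LPS in colon (-0.50 ± 0.34), and 61.6 to 157 CPM against 69.1 to 138 CPM in the small intestine (-0.11). Thbs4 read 0 to 18.3 CPM with PBS and 0 to 21.4 CPM with LPS in colon (0.21), and 0 to 15.1 CPM against 2.99 to 18.3 CPM in the small intestine (1.04 ± 1.73). Both treatments overlapped for each of these genes.

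The log2 differences with LPS were -0.40 in colon and 0.05 in the small intestine for Ano1, and -1.11 ± 1.05 and -0.23 for Cd36. Colon minus small intestine, the effects of LPS differed by -0.74 for Kit, -0.45 for Ano1, -0.39 for Etv1, -0.83 for Thbs4 and -0.88 for Cd36. Over LPS in colon, LPS in the small intestine and their difference, 0 of 15 gene-by-comparison pairs passed the edgeR test, 0 had an unadjusted p under 0.05 and DESeq2 called 0. The shares of all genes called were 0.778% in colon, 1.1% in the small intestine and 0% for the difference, for which 452 genes had an unadjusted p under 0.05 and DESeq2 called 44. Among the KIT and slow-wave list, Gja1 was called higher with LPS in the small intestine (2.01 ± 0.44, adjusted p = 0.0322) and no gene was called in colon, where 4 of 23 had an unadjusted p under 0.05 (7.53% of all genes did). Kitl gave -0.17 in the small intestine, 0.30 in colon and 0.48 for the difference.

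**Figure D2:**
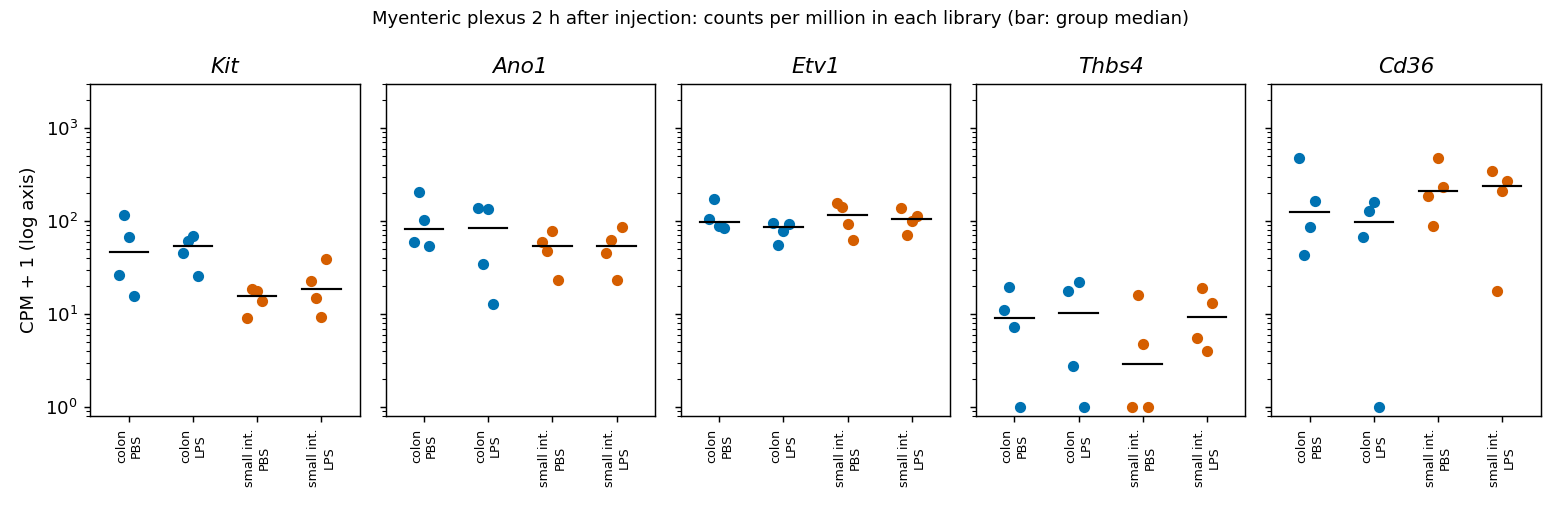
Levels (CPM plus 1, log scale, 1 panel per gene) in the 16 libraries taken 2 h after PBS or LPS, by region, with bars at the group medians. Treatments overlap in each region for all 5 genes, and Kit lies higher in colon than in the small intestine in most libraries.

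At 2 h, 3 of 4 PBS colon libraries had more Kit than any PBS small intestine library, and male 4 did not. The colon-minus-small intestine log2 difference was 2.00 ± 0.63 with PBS (adjusted p = 0.200) and 1.25 ± 0.61 with LPS (adjusted p = 0.487). The same differences with PBS and LPS were 1.02 and 0.57 for Ano1, -0.01 and -0.40 for Etv1, 0.90 and 0.07 for Thbs4 and -0.35 and -1.24 for Cd36. For Kitl they were 1.25 and 1.73. No gene of the 5 passed the edgeR test in these comparisons (0 of 10 pairs, 1 with an unadjusted p under 0.05, DESeq2 called 1), where 0.221% and 0.061% of all genes were called. Averaged over both treatments, a comparison added after the separate ones had been seen, Kit was higher in colon by 1.62 ± 0.44 (adjusted p = 0.0471; 3.84% of all genes called). That call held in only 4 of 16 fits that left out a library. It was lost with the animal label as a block (1.46, adjusted p = 0.105), with RLE factors (0.0510), without the filter on low counts (0.0503) and with sex as a covariate (0.0534), and it held with DESeq2 (0.00659). In the average, Ano1 gave 0.79, Etv1 -0.20, Thbs4 0.49 and Cd36 -0.79. Kitl (1.49 ± 0.32, adjusted p = 0.0183) and Gja1 (1.21 ± 0.31, adjusted p = 0.0372) were called higher in colon in the same comparison. So were 4 of 6 smooth muscle, 3 of 3 lymphatic endothelial and 1 of 5 PDGFRA-positive fibroblast-like cell markers, while 4 of 5 neuronal and 1 of 3 mesothelial markers were called lower. Their part in the Kit difference was not tested.

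At 24 h, no LPS comparison of Ano1 within 1 genotype passed the test, although its values lay lower without overlap in both Gpr37WT regions. How many of all genes were apart in this way was not counted. In the Gpr37WT small intestine Ano1 read 20.3, 11.9, 16.8 and 38.8 CPM after LPS, in mice 3, 8, 16 and 13. After PBS it ran from 45.0 through a median of 114 to 227 CPM in 6 mice. Every LPS value lay below every PBS value. In the Gpr37-/- small intestine it read 28.2, 59.3, 14.3, 35.0 and 56.4 CPM after LPS, and 167, 241, 214 and 2.25 CPM after PBS. Here mouse 7, the PBS library at 2.25 CPM, lay below all LPS libraries and the other 3 above them.

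In colon, Gpr37WT mice had 12.7, 24.9, 27.8, 10.2 and 10.6 CPM of Ano1 after LPS (mice 13, 16, 3, 5 and 8) and 205, 183, 63.4 and 55.7 CPM after PBS (mice 14, 19, 22 and 24). These groups did not overlap. Gpr37-/- mice had 274, 32.5, 0.536 and 57.2 CPM after LPS (mice 11, 17, 2 and 21) and 365, 253, 10.7, 154 and 30.4 CPM after PBS (mice 12, 15, 1, 20 and 7), an almost complete overlap. Log2 differences were -2.56 ± 0.99 in Gpr37WT small intestine (adjusted p = 0.115), -2.87 ± 0.97 in Gpr37WT colon (0.0582), -2.01 ± 0.94 in Gpr37-/- small intestine (0.393) and -0.83 ± 0.94 in Gpr37-/- colon (0.783). None passed the edgeR test. The Gpr37WT colon value passed in 3 of 7 alternatives: with DESeq2 (adjusted p = 0.0136), with its groups fitted alone (-2.80, adjusted p = 0.0212) and with mice numbered 11 and above only (-2.70, adjusted p = 0.0495). With the mouse number division as a covariate it was -1.51 (adjusted p = 0.369), and mice numbered 10 and below were 3 of 5 LPS and 0 of 4 PBS libraries in this comparison. The Gpr37WT small intestine value passed in 2 of 7, with DESeq2 (-2.57, adjusted p = 0.0226) and with its groups fitted alone (-2.49, adjusted p = 0.0148), and was -1.80 (adjusted p = 0.223) with the mouse number division as a covariate. Neither Gpr37-/- value passed in any of the 7.

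Over these 4 comparisons, 0 of 20 gene-by-comparison pairs passed the edgeR test, 4 had an unadjusted p under 0.05, and DESeq2 called 2. Background shares were 7.17% of all genes called in Gpr37WT small intestine, 7.96% in Gpr37WT colon and 0.718% in each region of Gpr37-/- mice. At an unadjusted p under 0.05 they were 21.7% and 24.8% in Gpr37WT small intestine and colon, and 11.5% and 12.4% in Gpr37-/- mice. Averaged over the genotypes, a comparison added after the separate ones had been seen, Ano1 was lower after LPS in the small intestine by -2.29 ± 0.68 (adjusted p = 0.0232; 12.8% of all genes called, with a median of -0.10 over all genes). The call was lost without Gpr37WT LPS mouse 8 (-2.18, adjusted p = 0.0530) and held in the other 36 of 37 such fits. In colon the averaged value was -1.85 ± 0.68 (adjusted p = 0.0813; 9.64% of all genes called).

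The animals' numbers run unevenly through the treatments. Mice numbered 10 and below, which differ from the others as described below, gave 4 of 9 LPS and 2 of 10 PBS small intestine libraries, and 4 of 9 LPS and 2 of 9 PBS colon libraries. Among mice numbered 11 and above alone, the averaged small intestine value for Ano1 was -2.19 (adjusted p = 0.0107) and the colon value -1.88 (adjusted p = 0.0288). There, small intestine Ano1 ran from 16.8 to 38.8 CPM after LPS and from 45.0 to 227 CPM after PBS in Gpr37WT mice, and from 28.2 to 59.3 CPM against 167 to 241 CPM in Gpr37-/- mice, without overlap in either. With the number division as a covariate and all mice kept, the values were -1.53 (adjusted p = 0.119) and -1.26 (0.205).

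For Kit, Etv1, Thbs4 and Cd36 no comparison with LPS at 24 h passed the test. In Gpr37WT colon, Kit read 20.4, 31.0, 0.472, 0.455 and 2.11 CPM after LPS and 102, 116, 26.4 and 22.0 CPM after PBS (-2.60 ± 1.13, adjusted p = 0.141). The 3 lowest values came from mice 3, 5 and 8, all of the low-numbered mice in that group. In Gpr37WT small intestine Kit read 10.3, 53.7, 18.2 and 48.1 CPM after LPS and from 4.33 to 55.3 CPM after PBS, ranges that covered each other. Etv1 ranged over all 24 h libraries from 11.8 CPM (Gpr37WT LPS colon, mouse 8) to 176 CPM (Gpr37-/- LPS colon, mouse 11), and Thbs4 from 0 to 108 CPM. The LPS-minus-PBS log2 differences in Gpr37WT small intestine, Gpr37WT colon, Gpr37-/- small intestine and Gpr37-/- colon were -0.40, -0.78, -0.75 and -0.16 for Etv1, and 0.63, 1.54, -0.72 and -1.49 for Thbs4. In that order they were -0.41, -0.30, 0.19 and 1.58 for Cd36, and 0.79, -2.60, -0.11 and -0.57 for Kit. Averaged over genotypes, the small intestine and colon values were 0.34 and -1.59 for Kit, -0.58 and -0.47 for Etv1, -0.04 and 0.03 for Thbs4 and -0.11 and 0.64 for Cd36.

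**Figure D3:**
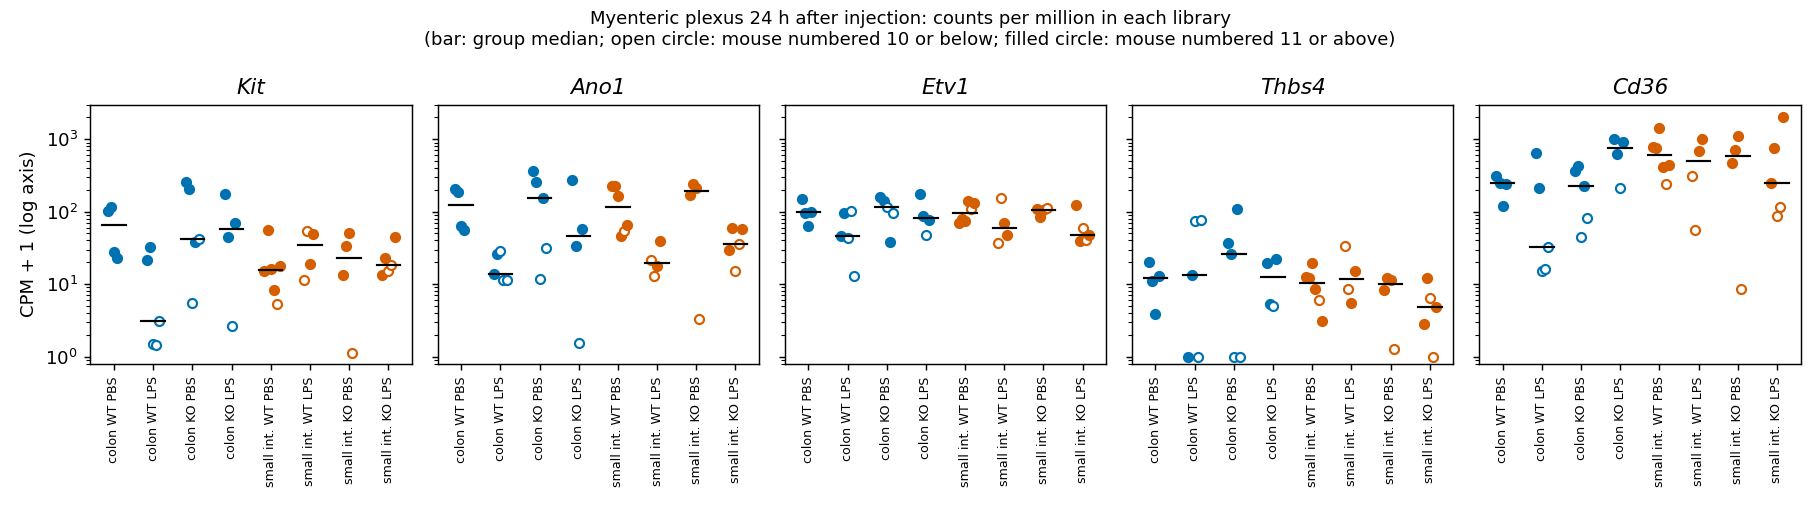
Levels (CPM plus 1, log scale, 1 panel per gene) in the 37 libraries taken at 24 h, by region, genotype and treatment, with bars at the group medians, filled points for mice numbered 11 and above and open points for mice numbered 10 and below (WT is Gpr37WT, KO is Gpr37-/-). Ano1 is lower after LPS than after PBS in both Gpr37WT regions without overlap, but neither difference is called. Low-numbered mice hold most of the lowest Kit and Cd36 values.

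Markers of other cells were set beside the Ano1 difference. In the small intestine, summed smooth muscle markers ran from 828 to 5268 CPM after PBS and from 240 to 2517 CPM after LPS in Gpr37WT mice, and from 542 to 6499 CPM against 534 to 2798 CPM in Gpr37-/- mice. Summed markers of PDGFRA-positive fibroblast-like cells there ran from 95.0 to 1183 CPM against 37.5 to 478 CPM, and from 31.2 to 930 CPM against 18.6 to 485 CPM. In Gpr37WT colon the PDGFRA-positive markers ran from 2199 to 3651 CPM after PBS and from 69.1 to 941 CPM after LPS, without overlap, and the smooth muscle markers from 852 to 7108 CPM against 592 to 3088 CPM. There, 1 of 5 PDGFRA-positive (list median -2.94), 1 of 5 blood endothelial, 1 of 7 glial and 0 of 6 smooth muscle markers were called lower and no marker of any other cell type was called. In the small intestine averaged over genotypes, where 12.8% of all genes were called, 1 of 6 smooth muscle markers and 0 of 5 PDGFRA-positive fibroblast-like cell markers were called lower (list medians -1.03 and -1.92). Of blood endothelial and mesothelial markers, 1 of 5 and 1 of 3 were called lower. Of neuronal and mast cell markers, 2 of 5 and 1 of 2 tested were called higher, and the macrophage and glial lists each had 1 gene higher and 1 lower. The median mitochondrial share was 4.79% with PBS and 8.72% with LPS in Gpr37WT small intestine, and 5.16% and 9.05% in Gpr37WT colon. Their part in the Ano1 difference was not tested.

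Of the KIT and slow-wave list at 24 h, 6 of 24 were called lower and 1 higher after LPS in Gpr37WT colon, beside 7.96% of all genes called (median -1.21, against -0.03 over all genes). The PDGFRA-positive markers did not overlap between treatments in this comparison, as given above, and mice numbered 10 and below, in which 8 of the 24 were called lower, were 3 of 5 LPS and 0 of 4 PBS libraries. The part of either in the list's calls was not tested. The 3 widest were the soluble guanylate cyclase subunits Gucy1b1 (-3.57 ± 0.89, adjusted p = 0.0120) and Gucy1a1 (-3.37 ± 0.90, adjusted p = 0.0182), through which nitric oxide relaxes the gut wall, and Itpr1 (-3.36 ± 0.78, adjusted p = 0.00757). In Gpr37WT small intestine the list's share was near that of all genes (7.17%), with Itpr1 the 1 gene called lower (-3.87 ± 0.85, adjusted p = 0.00354). Cd44 was the 1 gene called higher in each, by 2.69 ± 0.47 in colon (adjusted p = 0.000537) and 2.91 ± 0.42 in the small intestine (adjusted p = 1.82e-05). In Gpr37-/- mice no list gene passed in either region, with 2 of 24 in the small intestine and 1 of 24 in colon at an unadjusted p under 0.05, as were 11.5% and 12.4% of all genes. Kitl gave -1.08 (adjusted p = 0.437) and -1.22 (adjusted p = 0.325) in Gpr37WT small intestine and colon, and -0.94 and 0.08 in Gpr37-/- mice. Averaged over genotypes, the list genes called in the small intestine (12.8% of all genes called) were Itpr1 (-2.96 ± 0.56, adjusted p = 0.000431) and Cd44 (2.02 ± 0.31, adjusted p = 2.60e-05), and Kitl gave -1.01 (adjusted p = 0.222). In colon (9.64% of all genes called) they were Itpr1 (-2.16 ± 0.54, adjusted p = 0.00951), Prkg1, the cGMP-dependent kinase (-2.11 ± 0.57, adjusted p = 0.0168), and Cd44 (2.00 ± 0.31, adjusted p = 7.23e-05), and Kitl gave -0.57 (adjusted p = 0.563).

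Deletion of Gpr37 moved none of the 5 genes past the test. Over both regions and treatments and the genotype-by-LPS interactions, 0 of 30 gene-by-comparison pairs passed the edgeR test, 2 had an unadjusted p under 0.05 and DESeq2 called 0. The background was low: 0% of all genes were called in both PBS comparisons (256 genes in the small intestine and 629 in colon at an unadjusted p under 0.05, DESeq2 58 and 74) and in both interactions (578 and 2009, DESeq2 59 and 340), 0.0134% with LPS in the small intestine and 0.429% with LPS in colon. In LPS colon, Kit read 177, 43.0, 1.61 and 69.5 CPM in Gpr37-/- mice against at most 31.0 CPM in Gpr37WT mice. Mouse 2, at 1.61 CPM, brought the genotypes into overlap. The log2 difference was 2.74 ± 1.13 for Kit (adjusted p = 0.224) and 2.40 ± 0.95 for Ano1 (adjusted p = 0.210), and Gpr37WT LPS colon had 3 of 5 low-numbered mice against 1 of 4. There Cd36 gave 1.89 ± 1.02, Etv1 0.70 and Thbs4 -1.42. In PBS colon the differences were 0.70 for Kit, 0.36 for Ano1, 0.08 for Etv1, 1.61 for Thbs4 and 0.01 for Cd36. Small intestine differences, with PBS and LPS, were 0.33 and -0.57 for Kit, 0.27 and 0.82 for Ano1, 0.02 and -0.32 for Etv1, -0.36 and -1.71 for Thbs4 and -0.25 and 0.35 for Cd36. The genotype-by-LPS term in colon was -3.03 ± 1.93 for Thbs4 (adjusted p = 0.519), 2.03 for Kit, 2.04 for Ano1, 0.62 for Etv1, 1.88 for Cd36 and 1.30 for Kitl. This term in the small intestine was -1.35 for Thbs4, -0.90 for Kit, 0.55 for Ano1, -0.34 for Etv1, 0.60 for Cd36 and 0.14 for Kitl.

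Averaged over treatments, Gpr37-/- minus Gpr37WT gave 1.72 ± 0.79 for Kit (adjusted p = 0.604) and 1.38 ± 0.67 for Ano1 (adjusted p = 0.625) in colon, with 0.39 for Etv1, 0.10 for Thbs4 and 0.95 for Cd36. The small intestine averages were -0.12 for Kit, 0.55 for Ano1, -0.15 for Etv1, -1.04 for Thbs4 and 0.05 for Cd36. In these averaged comparisons 0 of 10 pairs passed the edgeR test, 2 had an unadjusted p under 0.05 and DESeq2 called 0, beside 0.0201% of all genes in each region. No gene of the KIT and slow-wave list passed the edgeR test for genotype, although 9 of 24 had an unadjusted p under 0.05 in LPS colon, where 2448 of all 14903 genes did (16.4%), and Kitl gave 0.24 in colon and 0.07 in the small intestine in these averages. In LPS colon, medians of lymphatic endothelial (2.08), PDGFRA-positive (1.70), blood endothelial (1.38), smooth muscle (1.23) and neuronal (0.34) markers were also above 0. Those of the other cell types, among them leukocytes (-2.28) and epithelium (-3.46), were below 0. None of these markers was called there, and their part in the list's values was not tested. Since the libraries without reads of Gpr37 include Gpr37WT ones, its counts do not check every genotype label.

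**Figure D4:**
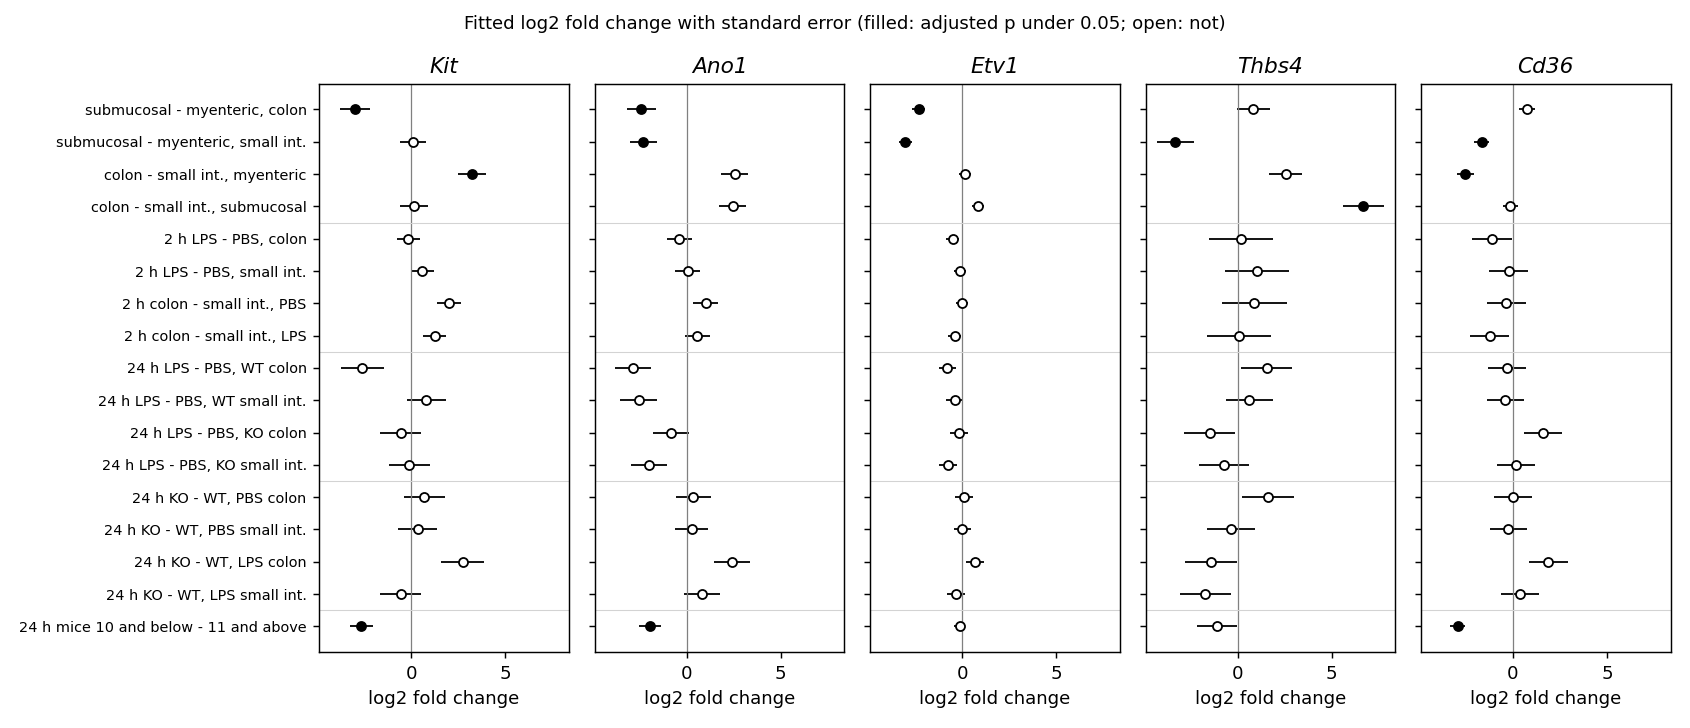
Log2 differences of the 5 genes in the main comparisons, with points at the edgeR estimates, bars of 1 standard error on each side and filled points for adjusted p under 0.05 (WT is Gpr37WT, KO is Gpr37-/-). Kit, Ano1 and Etv1 fall on the negative side for the colon plexus comparison, and all 5 genes for mice numbered 10 and below against the rest, where Kit, Ano1 and Cd36 are filled.

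Region was next compared within animals at 24 h, since 15 mice gave both a colon and a small intestine library. Colon was higher than small intestine in 11 of 15 mice for Kit, 9 for Ano1, 9 for Etv1 and 10 for Thbs4. Cd36 ran the other way and was higher in the small intestine in 13 of 15 mice, all but mice 7 and 11. In the fit over all 8 groups, colon minus small intestine gave 1.82 ± 1.03 for Kit in Gpr37WT PBS mice, -1.57 ± 1.10 in Gpr37WT LPS mice, 2.19 ± 1.16 in Gpr37-/- PBS mice and 1.73 ± 1.10 in Gpr37-/- LPS mice. For Cd36 the values were -1.57, -1.46, -1.32 and 0.08 in the same order. They were -0.03, -0.34, 0.06 and 1.24 for Ano1, 0.01, -0.37, 0.08 and 0.66 for Etv1, and 0.23, 1.14, 2.21 and 1.44 for Thbs4. Kitl gave 0.09, -0.05, -0.32 and 0.70.

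None of these passed the test (0 of 20 pairs by edgeR, 0 with an unadjusted p under 0.05, DESeq2 0), where the shares of all genes called were 0.141%, 0.262%, 0.0805% and 0.0738%. Averaged over the 4 groups, again added later, Kit gave 1.04 ± 0.54 (adjusted p = 0.285) and Cd36 -1.07 ± 0.51 (adjusted p = 0.226), with 0 of 5 genes called by edgeR, 1 at an unadjusted p under 0.05 and 0 called by DESeq2, beside 7.72% of all genes called. Ano1 gave 0.23, Etv1 0.10 and Thbs4 1.25 in this average. Kit passed in 1 of 8 alternatives, mice numbered 11 and above alone (1.39, adjusted p = 0.0391, with colon higher in 10 of 12 such mice), and was 0.46 (adjusted p = 0.664) with the mouse number division as a covariate. Cd36 passed in 2 of 8, with those mice alone (-1.02, adjusted p = 0.0366) and with that covariate (-1.12, adjusted p = 0.0192). Lrig1, a negative regulator of receptor tyrosine kinases, was the list gene called lower in colon over all mice (-1.17 ± 0.35, adjusted p = 0.0353), and Kitl gave 0.10 (adjusted p = 0.947). In the averaged comparison 3 of 3 lymphatic endothelial, 2 of 5 PDGFRA-positive fibroblast-like cell, 1 of 7 glial and 1 of 2 tested mast cell markers were called higher in colon, and 5 of 5 neuronal, 3 of 3 mesothelial, 1 of 4 leukocyte and 1 of 3 tested adipocyte markers lower. Their part in the Kit and Cd36 values was not tested.

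**Figure D5:**
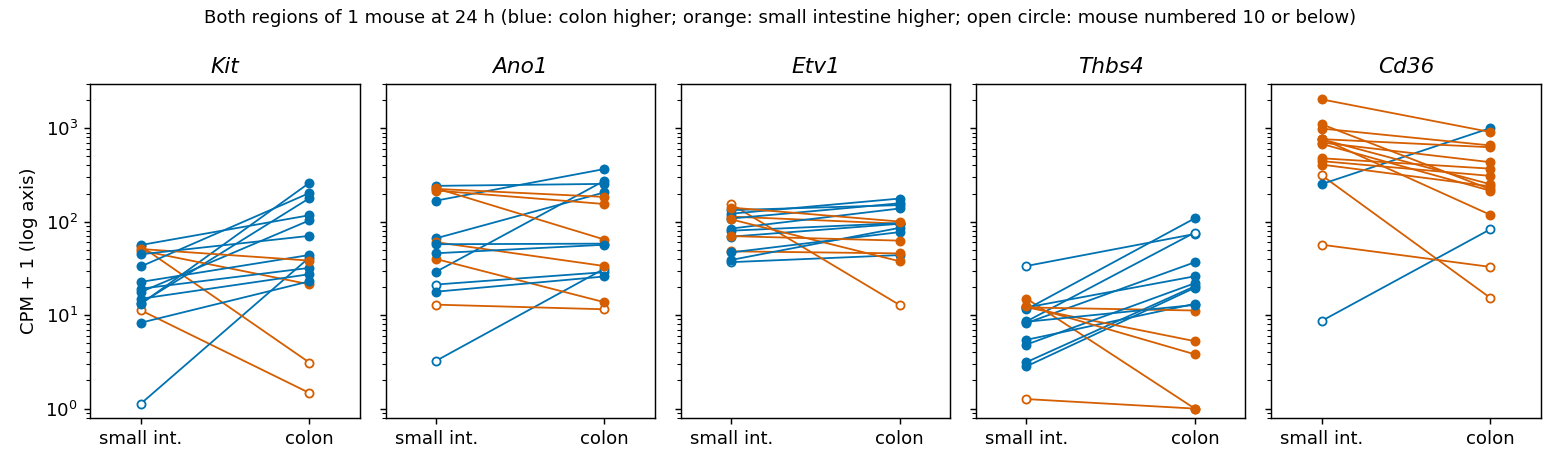
Colon and small intestine levels (CPM plus 1, log scale) of the 5 genes in the 15 mice with both libraries at 24 h, each mouse joined by a line. Blue marks mice with the higher level in colon and orange those with the higher level in the small intestine; open circles are mice numbered 10 or below. Cd36 is lower in colon in 13 of 15 mice, and Kit is higher in colon in 11 of 15. Neither gene passed the edgeR test between regions over all mice, and such counts were not made over all genes.

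Kit, Ano1 and Cd36 were lower at 24 h in mice with low numbers. The 12 libraries of the 9 mice numbered 10 and below were set against the 25 libraries of the 13 mice numbered 11 and above, with the 8 groups in the model. The position of this division had been found in the same data from the mitochondrial share, so it is a description of these libraries. What the numbers stand for, such as a date or a litter, is not given in the sources used here.

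Cd36 ran from 7.67 through a median of 68.7 to 312 CPM in the low-numbered mice, and from 118 through 625 to 2035 CPM in the others. In all 7 groups that held mice of both kinds, every low-numbered mouse lay below every other mouse. Gpr37-/- LPS colon, Gpr37WT PBS small intestine and Gpr37-/- PBS small intestine each held only 1 low-numbered library. How many of all genes had this order was not counted. The Cd36 log2 difference was -2.94 ± 0.40 (adjusted p = 1.94e-05). Kit ran from 0.132 through 4.41 to 53.7 CPM against 7.31 through 32.2 to 259 CPM, and the low-numbered mice were all below the others in 4 of the 7 groups. Those were the groups with only 1 low-numbered library and Gpr37WT LPS colon. The Kit log2 difference was -2.65 ± 0.63 (adjusted p = 0.00810).

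Ano1 had medians of 13.1 and 65.5 CPM (-1.95 ± 0.57, adjusted p = 0.0329), and 6 of 37 fits that left out a library lost its call. For Etv1 the value was -0.14 ± 0.28 (adjusted p = 0.844) and for Thbs4 -1.09 ± 1.08 (adjusted p = 0.634). The 3 calls among 5 genes stand beside 6.7% of all genes called. Because some mice gave 2 libraries, each region was also fitted alone. In colon the differences were -4.00 ± 0.76 for Kit (adjusted p = 0.0111), -2.83 for Ano1 (0.209) and -3.02 for Cd36 (0.00248), and in the small intestine -1.37 (0.419), -1.51 (0.213) and -2.83 (0.0286), so that Cd36 was the gene called in both.

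Kitl separated the animals fully: 6.08 to 51.6 CPM in low-numbered mice against 59.5 to 261 CPM in the others (-2.20 ± 0.30, adjusted p = 1.94e-05). It was 1 of 8 list genes called lower of 24, with 0 higher and 6.7% of all genes called, beside Cacna1g (-3.70 ± 0.92, adjusted p = 0.0118) and Gja1 (-2.26 ± 0.43, adjusted p = 0.00120). The median mitochondrial share, the measure from which the division was found, was 15.4% against 4.57%. Among other measures, summed blood endothelial markers had medians of 162 against 613 CPM, with 4 of 5 called lower. PDGFRA-positive fibroblast-like cell markers had 90.4 against 930 CPM, with 5 of 5 lower, and smooth muscle markers 2295 against 1405 CPM, with 3 of 6 higher. Of neuronal and glial markers, 2 of 5 and 1 of 7 were called higher. Sox10 had medians of 185 and 136 CPM. The part of any of these in the Kit, Ano1 and Cd36 differences was not tested.

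The genes most like each of the 5 were ranked by the lower of the Pearson correlations of log2 CPM over the 38 untreated and 2 h libraries and over the 37 libraries at 24 h, among 12816 other genes. These correlations are descriptions: libraries share animals, regions and group effects. Nearest to Kit were Pde3a (0.60), Meis2 (0.59) and Cdh11 (0.56), with Ano1 at rank 17 (0.50) and Kitl at rank 31 (0.48). Cd36 ranked 11710 for Kit, since the pair had r of -0.34 in one table and 0.67 in the other. Nearest to Ano1 were Tshz2 (0.78), Abcc9 (0.74) and Gja1 (0.74), with Kit at rank 161.

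Etv1 lay nearest to Cd99l2 (0.80) and Pura (0.78). Thbs4 lay nearest to S100a11 (0.58), Adam15 (0.52) and AC166172.5 (0.48), with Ano1 at rank 7 (0.45). Cd36 lay nearest to Adgrl4 (0.74), C1qtnf9 (0.68) and Sh2d3c (0.67), the first of which is a receptor of endothelial cells. With the group means removed from each library, Cd36 lay nearest to Kdr (0.77), the endothelial receptor of VEGF, Cdh13 (0.76) and Adgrl4 (0.76). On that measure Adra1a led for Kit (0.52) and Tshz2 for Ano1 (0.55), so no member of the 5 was nearest to another.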

How the data were processed

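RNA of cells labelled enteric glia was sequenced after Smart-seq2 amplification, per the labels' protocols. The authors deposited raw read counts per gene in 2 tables, 1 for untreated and 2 h samples and 1 for 24 h samples. Trim Galore 0.4.4, STAR 2.5.3, DESeq2 and the build GRCm38 are named in the submitters' processing notes; the counter, the annotation and the use of strand are not given in the sources used here, so reads of overlapping genes on opposite strands cannot be told apart. Each experiment was fitted on its own with edgeR 4.0.16 in R 4.3.3 (quasi-likelihood test, TMM factors, filterByExpr by group, 2-sided, Benjamini-Hochberg over 14090 untreated, 13107 2 h and 14903 24 h genes). Genes with an adjusted p under 0.05 are called. CPM levels were computed here from the deposited counts with TMM-scaled totals, and correlations used log2 CPM with a prior count of 2. Tables were normalized apart, so levels are compared within an experiment. Each standard error is the absolute log2 fold change divided by the square root of F. A floor of 3 counts covers counting error only, since reads carry no molecular identifiers.

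There were 25 planned comparisons and 6 averages over groups added after the separate ones had been seen. The 5 genes, the other lists and the mouse number division were chosen with earlier results of these data known. The 5 genes are named in every comparison, and Kitl in all but the genotype comparisons within 1 treatment. Up to 3 called genes of the KIT and slow-wave list are named per direction by size of difference. That list held Mrvi1 also under its newer symbol Irag1, and it is counted once. The 3 genes most like each of the 5 are named, except 1 that is not reported here. Marker lists of 12 other cell types were counted beside the results. Alternatives were DESeq2 1.42.0, RLE factors, no filter, groups fitted alone, sex, the mouse number, the animal label as a block and each library left out.

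The labels of untreated and 2 h mice give sex and a number, and those of 24 h mice a mouse number. At 24 h, colon and small intestine libraries with the same mouse number were taken to come from the same animal. Their deviations from the group means correlated at a mean r of 0.121 over 15 such pairs (-0.044 to 0.237). Over 582 pairs of different mice the mean r was -0.00157, with a wider range (-0.371 to 0.485). The pairing therefore rests on the labels and not on these correlations. None of 143 replicate pairs held identical counts. The fits were tested on simulated data. Figures were drawn with matplotlib 3.10.9.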

Additional observations from a re-analysis of the deposited data

Results flagged for a closer look

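Of 80 sets of 4 to 6 libraries of 1 group examined per gene on the log2 CPM scale, 8 held a library far from the others; about 4 are expected by chance, since 1 in 20 sets is marked so. Ano1 in untreated colon myenteric male 3 stood at 528 CPM, above 124 to 181 CPM in the other libraries, and the same library held the highest Kit. Ano1 in untreated small intestine myenteric female 3 stood at 9.42 CPM, below 34.8 to 50.3 CPM. The small intestine library of Gpr37-/- PBS mouse 7 at 24 h was far below the others for 3 genes: Ano1 at 2.25 CPM (others 167 to 241), Thbs4 at 0.265 CPM (7.23 to 11.1) and Cd36 at 7.67 CPM (476 to 1102). It was also the lowest for Kit, at 0.132 CPM (others 12.2 or more), within the limit used. Cd36 in untreated colon myenteric male 2 was 78.0 CPM, below 103 to 113 CPM. At 2 h after LPS, Cd36 had 0 CPM in colon male 4 (others 66.4 to 160) and 16.9 CPM in small intestine male 2 (others 209 to 340). The plexus difference of Cd36 was 2.41 higher on the log2 scale in colon than in the small intestine, by a test of the difference itself. Blood endothelial markers went the same way (list median 2.40, 1 of 5 called higher), and their part in it was not tested.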

How the results depend on the processing

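Counts below are calls of the 5 genes over the comparisons of a kind. Such counts carry no direction, so they do not show whether an estimate changed sign. DESeq2 called 6 in place of 3 for untreated region, 2 in place of 1 for the plexus-by-region difference, 1 in place of 0 for region at 2 h, 2 in place of 0 for LPS at 24 h and 2 in place of 1 for LPS averaged over genotypes. With groups fitted alone, LPS at 24 h gave 2. With mice numbered 11 and above only, it gave 1, its average over genotypes 2, and averaged region at 24 h 2 in place of 0. With mouse number as a covariate, averaged region at 24 h gave 1 and averaged LPS 0. The mouse number result gave 1 in place of 3 as a linear term and 1 in small intestine alone. Averaged region at 2 h gave 0 in place of 1 with RLE factors, without the filter, with sex and with the block. The cause was not tested for any of these.

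Leaving out each library in turn gave 6 to 7 calls for untreated plexus (7 with all), 2 to 5 for untreated region, 0 to 1 for the plexus-by-region difference, 0 to 1 for LPS at 24 h, 0 to 2 for its average, 0 to 1 for averaged region at 2 h, 2 to 3 for mouse number and 0 to 0 for the rest. The replicate block by animal label gave 7 for untreated plexus, 3 for untreated region, 0 for the plexus-by-region difference, 0 for LPS and region at 2 h, and 0 for region at 24 h, averaged or not. Whether untreated and 2 h numbers mark the same animal was not settled. Of same-label pairs, 10 of 30 and 5 of 24 correlated over 0.1 (mean r 0.093 and 0.060), against 11 of 151 and 0 of 72 pairs with different labels. The block ended the calls of Kit for myenteric region, Cd36 for the plexus-by-region difference and Kit for averaged region at 2 h, and added Ano1 for myenteric region. For Thbs4 in small intestine submucosal libraries, 0 to 4 counts lie at or near the floor, and the effect of depth was not tested.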
